A study of Homo sapiens with 6 samples.

Results

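Keratins are the intermediate filament proteins of epithelial cells and of hair, and keratin-associated proteins form the sulfur-rich matrix that embeds the filaments of the hair shaft. The 10 genes described here, 8 keratins and 2 keratin-associated protein genes, were chosen by name from a count table of 15924 genes with their measured response to lactate in these same libraries known. Their changes are therefore a description, and no p-value is given for them. The RNA came from WPMY-1, an immortalized human prostate stromal cell line, in 2 groups: 3 control libraries of untreated cells and 3 lactate libraries of cells given 24 mM lactate for 48 h. The study's methods have lactic acid in medium that lacked bicarbonate, at a slightly acidic pH and outside a CO2 atmosphere, although the labels mention CO2. The acidity of the control medium is not given in the sources used here, so lactate and acidity cannot be told apart. All 6 libraries came from 1 cell line, which limits them as a model of the prostate stroma.

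A keratin filament is built from pairs of an acidic type I and a basic type II keratin. The type I genes lie on chromosome 17 and the type II genes on chromosome 12, with KRT18 as the exception among type I genes, next to its partner KRT8 on chromosome 12. KRT8, KRT18, KRT7 and KRT19 are the keratins of simple epithelia, which line ducts and glands. KRT10 is a keratin of the upper epidermis. KRT80 is a type II keratin found in many epithelia. KRT34 (type I) and KRT81 (type II) are hair keratins. KRTAP2-3 and KRTAP1-5 belong to families of small high-sulfur proteins whose cysteines form disulfide bonds with hair keratins.

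The coding starts of the keratin-associated members are shown first because the density of cysteine codons is what defines these genes. The first 120 coding bases of both keratin-associated genes are given 5′ to 3′ from GENCODE 29 transcripts (GRCh38), with in-frame cysteine codons in capitals.
KRTAP2-3: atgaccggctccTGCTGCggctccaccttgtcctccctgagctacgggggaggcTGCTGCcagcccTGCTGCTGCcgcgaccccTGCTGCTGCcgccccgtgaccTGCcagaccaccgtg
KRTAP1-5: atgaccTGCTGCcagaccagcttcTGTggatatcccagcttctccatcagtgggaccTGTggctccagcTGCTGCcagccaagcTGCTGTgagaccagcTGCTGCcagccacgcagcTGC
KRTAP2-3 lies on the minus strand at chr17:41059240-41060114 and KRTAP1-5 on the minus strand at chr17:41026026-41027202. In these stretches of 40 codons KRTAP2-3 and KRTAP1-5 each had 11 cysteine codons. Over the whole coding sequence cysteine took 27.3% of the codons of KRTAP2-3 (35 of 128) and 24.1% of those of KRTAP1-5 (42 of 174). The hair keratins KRT81 and KRT34 followed with 6.73% and 5.73%. The share was 1.99% in KRT80, 0.685% in KRT10 and 0.213% in KRT7, and KRT8, KRT18 and KRT19 had no cysteine codon.

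Sequencing depth was 20238653 to 46505372 counts per library, the deepest being control replicate 1. Levels are given as CPM (read counts divided by the library's depth on a common scale), adjusted by trimmed mean of M values (TMM) factors, with mean ± SD over the 3 libraries of a group. Fold changes are log2 of lactate over control from edgeR's quasi-likelihood fit. Their standard error (SE) was derived as the absolute log2 fold change divided by the square root of the F statistic. A gene was called changed at a Benjamini-Hochberg adjusted p under 0.05 over the 13188 genes tested. Intervals and p-values measure the spread between these libraries, which the labels call biological replicates. Replicate 1 of both groups stood apart from the other libraries of its group: its log2 deviation per 10 percentage points of GC content was 0.126 in control, against -0.219 and -0.349 in the other control libraries, and 0.348 in lactate, against 0.00841 and 0.0869. Of the stromal markers, vimentin (VIM) was at 2797 ± 141 CPM in control, COL1A1 at 1411 ± 206 CPM and THY1 at 565 ± 78.3 CPM, whereas PDGFRA (6.69 CPM), FAP (2.01 CPM) and LUM (1.70 CPM) were low. Of the epithelial markers, EPCAM and CDH1 were at 0.120 and 0.102 CPM, whereas OCLN and MUC1 were at 8.34 and 7.20 CPM.

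With lactate, both keratin-associated genes and the hair keratin KRT34 rose, KRT80 fell, and 6 members were not called. All 10 members were tested. Of these, 3 were called higher, where 5.29% of all genes tested were called higher, and 1 was called lower, where 4.14% of all genes were. The lactate and control libraries did not overlap for 5 members, against 32.6% of all genes tested. Since the members were chosen on this contrast, nothing is read from these counts. The median log2 fold change of the members was 0.21, and that of all genes tested was -0.02.

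**Figure D1:**
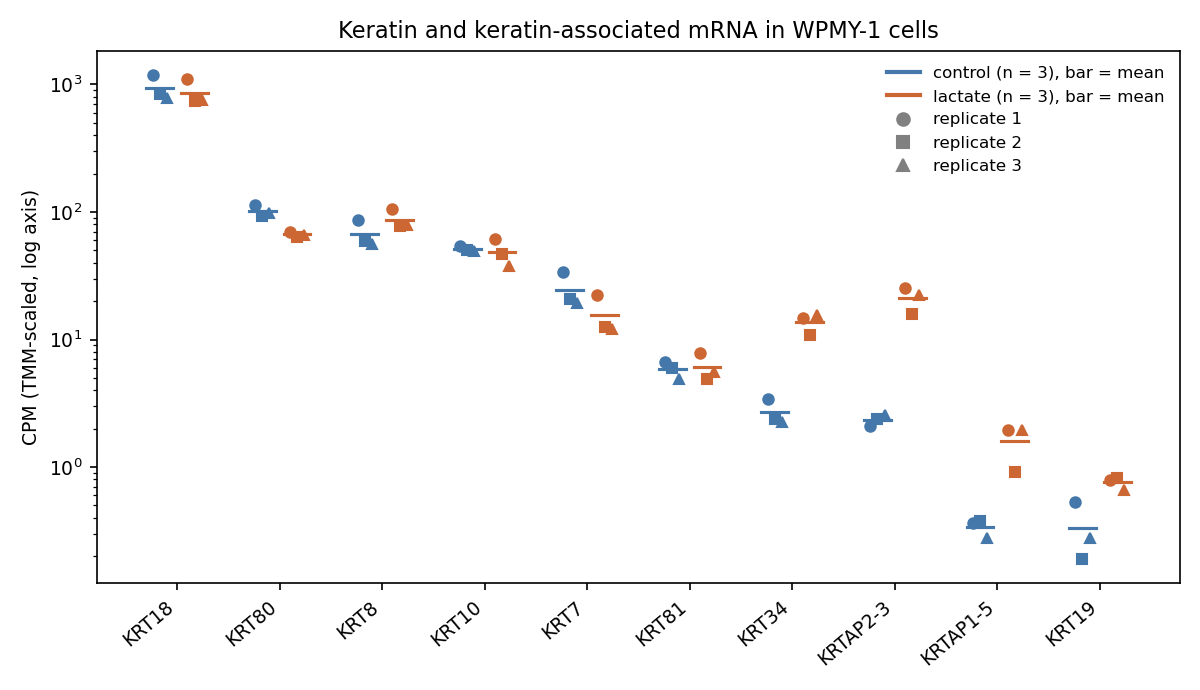
TMM-scaled CPM of the 10 genes on a log axis, ordered by level in control, with 1 symbol per library and a bar at each group mean (n = 3). KRT18 was the highest in both groups, at group means of 936 and 864 CPM, whereas KRTAP2-3, KRTAP1-5 and KRT34 lay higher in every lactate library than in any control library and KRT80 lay lower.

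KRTAP2-3 showed the steepest rise of the members. Its level in the control libraries was 2.09, 2.38 and 2.56 CPM, from 91, 50 and 65 counts. In the lactate libraries it was 25.5, 15.8 and 22.3 CPM, from 485, 383 and 544 counts. The lowest lactate library was thus well above the highest control library. The mean went from 2.34 ± 0.238 to 21.2 ± 4.92 CPM, a log2 fold change of 3.18 ± 0.24 (SE, n = 3 per group). Among the 13188 genes tested this was rank 7 by fold change. KRTAP2-3 was called in all 13 alternative settings, with log2 fold changes of 2.94 to 3.35.

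The counts of KRTAP2-3 may include reads of its near-identical neighbours. Its coding sequence differed from that of KRTAP2-4 at 1 of 387 aligned bases (99.7% identity), and identity was 99.5% with KRTAP2-1 and 99.0% with KRTAP2-2. Of the windows of 1 read length (76 bases) along the whole KRTAP2-3 transcript, 36% also occurred in a transcript of another gene. Shares of windows given here assume reads from the whole transcript, as the library kit in the labels would give. The study also describes a kit that reads only 3′ ends, for which these shares would not hold. None of these 3 copies is a row of the table analysed here, so the rise is that of KRTAP2-3 as the authors' pipeline assigned it.

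KRTAP1-5, the other keratin-associated member, was at 0.367, 0.381 and 0.276 CPM in control, from only 16, 8 and 7 counts. With lactate it was at 1.95, 0.910 and 1.97 CPM, from 37, 22 and 48 counts. The groups did not overlap, and lactate replicate 2 was the lowest of its group, as it was for KRTAP2-3. The log2 fold change was 2.21 ± 0.43 (mean 0.341 ± 0.0572 to 1.61 ± 0.604 CPM). None of its 76-base windows occurred in another transcript, although its coding sequence was 94.9% identical to that of KRTAP1-3. The call was lost when control replicate 2 (log2 fold change 2.27), control replicate 3 (2.09) or lactate replicate 3 (2.03) was left out. These fits called 172, 360 and 208 of all genes, against 1244 in the main fit, and the cause of the lost call was not tested. The count ratio of KRTAP2-3 to KRTAP1-5 was 5.69, 6.25 and 9.29 in control and 13.1, 17.4 and 11.3 in lactate, without overlap. The control ratios rest on only 16, 8 and 7 counts of KRTAP1-5. Whether KRTAP2-3 rose more than KRTAP1-5 was not tested.

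KRT34, a type I hair keratin on the minus strand at chr17:41377650-41382403, was at 3.42, 2.38 and 2.24 CPM in control (149, 50 and 57 counts). In the lactate libraries it was at 14.8, 10.9 and 15.6 CPM (281, 264 and 381 counts). Every lactate library was more than 3 times as high as any control library. The log2 fold change was 2.34 ± 0.25, with means of 2.68 ± 0.641 and 13.8 ± 2.50 CPM, and it was called in all 13 alternative settings (2.20 to 2.57). It shared 3.70% of its 76-base windows with other hair keratin transcripts.

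The upstream bases of both keratin-associated members are given because these neighbouring genes rose together. The 250 bases before the start of each gene are from RefSeq (GRCh38.p14), minus strand, 5′ to 3′, with matches to TATAAA, the letters of a TATA box, in capitals.
KRTAP2-3 (chr17:41060115-41060364): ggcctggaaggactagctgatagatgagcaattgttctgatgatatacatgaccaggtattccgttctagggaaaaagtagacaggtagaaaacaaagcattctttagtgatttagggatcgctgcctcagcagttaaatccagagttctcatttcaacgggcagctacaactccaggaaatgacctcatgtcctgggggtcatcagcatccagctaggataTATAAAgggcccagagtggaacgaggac
KRTAP1-5 (chr17:41027209-41027458): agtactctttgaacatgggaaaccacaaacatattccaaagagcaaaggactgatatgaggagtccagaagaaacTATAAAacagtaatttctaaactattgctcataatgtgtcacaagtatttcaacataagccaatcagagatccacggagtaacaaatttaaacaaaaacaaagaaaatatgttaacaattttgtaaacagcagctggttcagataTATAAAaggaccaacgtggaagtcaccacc
TATAAA began 28 bases before the start in KRTAP2-3, and 175 and 30 bases before it in KRTAP1-5. Upstream sequences were matched for 5 of the 10 members, and 4 of these held TATAAA, beginning at 31 bases in KRT34 and 29 bases in KRT10 as well, but not KRT8. The KRT8 window (chr12:52926470-52926719) lies within the gene span given below for KRT8. It therefore does not precede the outermost annotated start of that gene. The KRT34 window (chr17:41382307-41382556) also reaches into its gene span, which ends at 41382403, so its 31 bases are not counted from the outermost annotated start. On both strands the letters occurred in 10.7% of 35116 upstream windows of the same length. KRT10 held the same letters at a like distance without being called. TGANTCA, the AP-1 motif, was searched on both strands because the study examined AP-1. It was in none of these 5 windows and in 6.57% of all windows. These matches describe letters in a window and say nothing about binding.

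The one other keratin-associated gene in the table, KRTAP4-12, is not among the 10 genes and was at the edge of detection. It had 0, 1 and 0 counts in the control libraries and 24, 11 and 20 in the lactate libraries. It rose with an edgeR adjusted p of 0.00915. It could be tested only through its lactate libraries, so this p-value and the interval below are descriptions only. From the pooled counts, 1 in control and 55 in lactate, the depth-scaled ratio was 73.2 with an exact 95% interval of 12.6 to 2943, which covers counting error only. Cysteine took 36.8% of its codons. Its 250 upstream bases held TATAAA beginning 150 and 30 bases before the start and, unlike the 5 windows of members, TGANTCA, 219 bases before it. It lies at chr17:41123091-41124167 on the minus strand, between KRTAP2-3 and KRT34.

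KRT80 was the member called lower, and at 114, 93.9 and 99.0 CPM in control it was an abundant keratin in these cells. With lactate it was at 70.1, 64.0 and 66.2 CPM. The 3 lactate libraries lay close together and below every control library. The means were 102 ± 10.3 and 66.8 ± 3.10 CPM, a log2 fold change of -0.61 ± 0.14. The call was lost without control replicate 2 (-0.67), control replicate 3 (-0.64), lactate replicate 2 (-0.58) or lactate replicate 3 (-0.61), while the size stayed between -0.81 and -0.53 in all 13 alternatives. KRT80 lies at chr12:52168996-52192000 on the minus strand, and LINC00592 on the opposite strand spans it at 0.238 to 0.711 CPM.

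KRT18, on the plus strand at chr12:52948871-52952901, dominated the keratin mRNA of the cells and was not called. It was at 1188, 838 and 782 CPM in control and 1099, 742 and 750 CPM in lactate. Replicate 1 was the highest library in each group, and the groups overlapped. KRT18 held 77.0 to 79.8% of the members' counts in the control libraries and 75.7 to 78.0% in the lactate libraries. The log2 fold change was -0.12 ± 0.21, and it turned to 0.09 without control replicate 1. With each library's trend on GC content and gene length removed it was -0.31 and passed the threshold. Levels between genes are compared per kilobase of transcript, which holds only if reads came from the whole transcript. For 3′ end reads the undivided CPM would apply, and KRT80 (102 CPM in control) would then stand above KRT8 (67.6 CPM). Per kilobase, KRT18 had a mean level of 599 CPM per kb in control, against 40.1 for KRT8, 26.5 for KRT80, 24.1 for KRT10 and 14.0 for KRT7. The other members were at 3.04 (KRT81), 2.68 (KRTAP2-3), 1.53 (KRT34), 0.290 (KRTAP1-5) and 0.238 (KRT19). In this order KRT8, KRT80 and KRT10 lay within 23.1 to 51.6 CPM per kb over the control libraries, and the libraries of KRT80 and KRT10 overlapped. The libraries of KRT81 and KRTAP2-3 overlapped as well, as did those of KRTAP1-5 and KRT19. With lactate KRTAP2-3 reached 24.2 CPM per kb, above KRT7 (8.93), while its lactate libraries overlapped those of KRT80 (17.3) and KRT10 (23.0).

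KRT8 (chr12:52897187-52949954, minus strand), the type II partner of KRT18, was at 87.1, 59.6 and 56.0 CPM in control. In lactate it was at 106, 77.4 and 78.6 CPM. Replicate 1 was again the highest library in each group and the groups overlapped. The log2 fold change of 0.37 ± 0.21 was not called. It was called without control replicate 1 (0.59) and in the 4 libraries left when replicate 1 of both groups was dropped (0.43), an alternative chosen after seeing the data. With each library's trend on GC content and gene length removed, the log2 fold change was 0.18 and was not called.

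The ratio of KRT18 to KRT8 counts within a library was steadier than either level. It was 13.6, 14.1 and 14.0 in control and 10.4, 9.59 and 9.54 in lactate. The groups did not overlap, and the mean of 13.9 ± 0.214 went to 9.85 ± 0.490, 0.710 times the control ratio. The genes overlap by 1084 bases on opposite strands, and 19.6% of the 76-base windows of KRT18 also occurred in transcripts annotated to KRT8. Whether the counting used strand is not given in the sources used here, so reads from the overlap cannot be told apart. A further 11.4% of KRT8 windows were shared with the pseudogene KRT8P3.

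**Figure D2:**
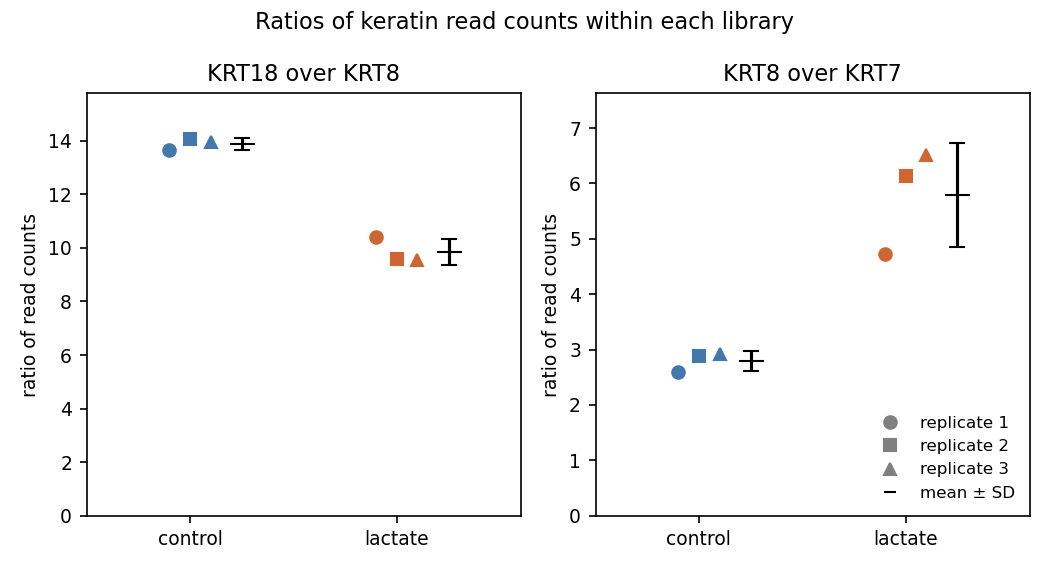
Ratios of raw read counts of KRT18 to KRT8 (left) and of KRT8 to KRT7 (right) in each library, with 1 symbol per replicate and the group mean ± SD (n = 3) beside it. The KRT18 to KRT8 ratio was 13.6 to 14.1 in control and 9.54 to 10.4 in lactate, and the KRT8 to KRT7 ratio was 2.59 to 2.92 in control and 4.73 to 6.51 in lactate.

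KRT7, a type II keratin of simple epithelia at chr12:52232520-52252186, had the lowest log2 fold change of the members without being called. It was at 33.6, 20.7 and 19.2 CPM in control and 22.3, 12.6 and 12.1 CPM in lactate. The groups overlapped only through lactate replicate 1, which lay above control replicates 2 and 3. The log2 fold change was -0.65 ± 0.30. It was called with the GC and length trend removed (-0.98) and in the 4 libraries without replicate 1 of each group (-0.69). The ratio of KRT8 to KRT7 was 2.59, 2.88 and 2.92 in control and 4.73, 6.13 and 6.51 in lactate, a ratio of group means of 2.07 with no overlap.

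KRT19 (chr17:41523617-41528308, minus strand), a type I keratin of simple epithelia that lacks the usual tail domain, was near the limit of detection. It had 23, 4 and 7 counts in control (0.527, 0.190 and 0.276 CPM) and 15, 20 and 16 counts in lactate (0.789, 0.827 and 0.655 CPM). The groups did not overlap, but the log2 fold change of 1.08 ± 0.46 was not called. It was called without control replicate 1 (1.66) and in the 4 libraries without replicate 1 of each group (1.63). KRT19 could be tested only through its lactate libraries, so nothing is read from these calls.

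KRT10 and KRT81 showed no difference beyond the spread between libraries. KRT10 (chr17:40818117-40822595, minus strand) was at 53.9, 50.6 and 49.1 CPM in control and 61.7, 47.0 and 37.7 CPM in lactate, with a log2 fold change of -0.07 ± 0.19 that turned to 0.08 without lactate replicate 3. The lactate libraries lay on both sides of all control libraries. TMEM99 overlaps KRT10 on the opposite strand and was at 10.7 to 11.5 CPM in control and 6.18 to 8.20 CPM in lactate. KRT81 (chr12:52285913-52291534, minus strand) was at 6.72, 6.00 and 4.88 CPM in control and 7.89, 4.92 and 5.53 CPM in lactate (log2 fold change 0.05 ± 0.24), and its sign turned in 4 of the 13 alternatives. KRT81 shared 32.8% of its 76-base windows with KRT86, which overlaps it and whose coding sequence was 94.0% identical. The hair keratins KRT34 and KRT81, one of each type, thus had different calls, and the difference between them was not tested.

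Without replicate 1 of both groups, 5 members were called higher and 2 lower. In that fit 6295 of all genes were called in either direction, where the main fit tested 13188. Calls were thus common among all genes, and nothing is read from these counts. The 4 libraries left still differed in GC trend by group, at -0.219 and -0.349 in control and 0.00841 and 0.0869 in lactate. The added calls were KRT8 and KRT19 on the higher side and KRT7 on the lower. In the main fit 1244 genes were called. In the 4 fits that lost KRT80, each without 1 library, 172 to 511 genes were called in all.

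By position, the keratin-named genes called higher were all in the chromosome 17 cluster. From KRT222 to KRT17 (970 kb, 62 annotated protein-coding keratin or keratin-associated genes) 14 were in the table and 7 were tested. KRTAP1-5, KRTAP2-3, KRTAP4-12 and KRT34 were called higher, and KRT10, KRT15 and KRT19 were not called. KRTAP1-5 and KRTAP4-12 were at 0.381 CPM or less in every control library. Both, like KRT19, could be tested only through their lactate libraries, so nothing is read from this count. In the chromosome 12 cluster from KRT80 to KRT18 (784 kb, 27 annotated genes) 9 were in the table, 6 were tested, 0 rose and KRT80 fell. Of all genes tested 5.29% were called higher and 4.14% lower. With so few genes tested, nothing is read from the chromosome 12 count or from a contrast between the clusters. KRTAP1-5 and KRTAP2-3 are 32.0 kb apart, KRTAP4-12 is 63.0 kb beyond KRTAP2-3, and KRT34 is 253 kb further on.

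**Figure D3:**
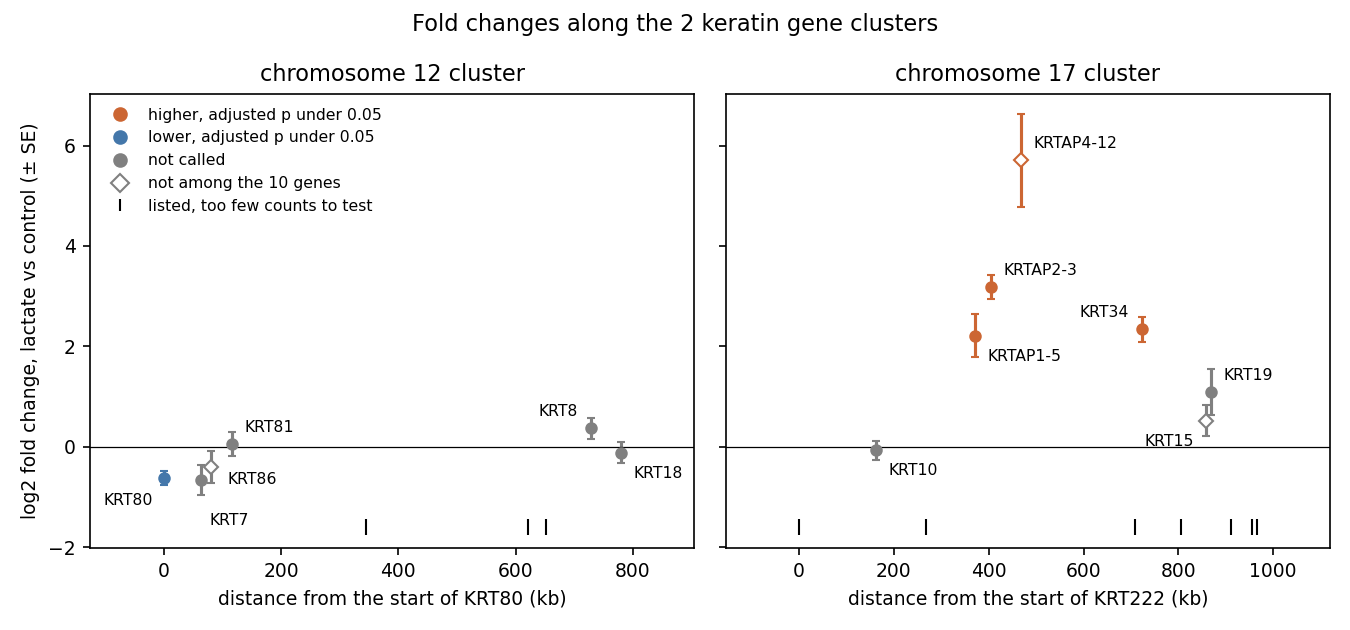
Log2 fold change ± SE (lactate over control) of the keratin-named genes tested, against distance in kb along the chromosome 12 cluster (left) and the chromosome 17 cluster (right), with ticks for listed genes too low to test. The genes called higher lay between KRTAP1-5 and KRT34, and the fitted value of KRTAP4-12 depends on the prior count, since its control libraries held 1 count in all.

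**Figure D4:**
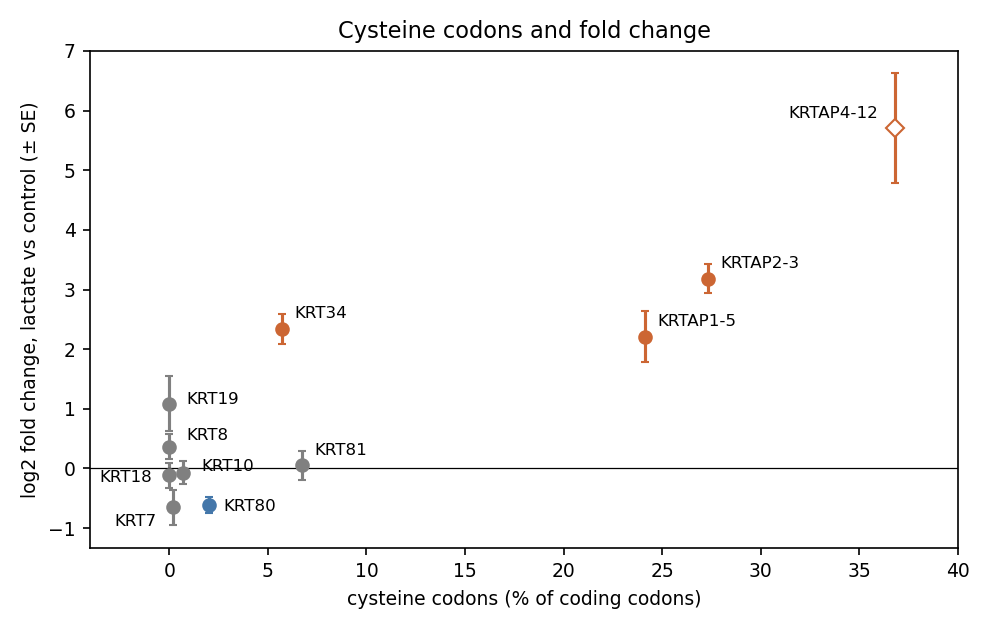
Log2 fold change ± SE (lactate over control) against the share of cysteine codons, in percent of coding codons, for the 10 genes and KRTAP4-12. The genes at 24.1% or more were all called higher, KRT34 at 5.73% was called higher and KRT81 at 6.73% was not. The 10 genes were chosen with this contrast known, and KRTAP1-5 and KRTAP4-12 could be tested only through their lactate libraries. Nothing is therefore read from this order.

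The rest of the family by name was sparse. Of 55 annotated protein-coding keratin genes 20 were in the table, and of 94 keratin-associated genes 3 were. Among the 13 keratin-named genes outside the members, 3 were tested and only KRTAP4-12 was called. KRT15, a keratin of basal cells, had a log2 fold change of 0.52 (edgeR adjusted p = 0.285) and KRT86, a hair keratin, of -0.40 (edgeR adjusted p = 0.441). The other 10 had 6 to 33 counts over all libraries, KRT5 and KRT17 of basal epithelium among them. Summed over the table, keratins made up 1016 to 1492 CPM in control and 964 to 1387 CPM in lactate, which overlap. Keratin-associated genes summed to 2.45 to 2.83 CPM in control and 17.2 to 28.7 CPM in lactate, which do not. Most of this sum over 3 genes was KRTAP2-3, at 2.09 to 2.56 CPM in control and 15.8 to 25.5 CPM in lactate. It therefore restates that member and says little about the class.

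The intermediate filaments other than keratins moved downward where they were called. Of 16 genes on the list 10 were tested, 0 rose and 4 fell, with a median log2 fold change of -0.65 beside -0.02 for all genes tested, of which 5.29% rose and 4.14% fell. NEFL, the neurofilament light chain, went from 16.6 ± 0.687 to 5.52 ± 0.868 CPM (log2 fold change -1.59, edgeR adjusted p = 0.00356). BFSP1, a lens filament protein, fell by 1.52 on the log2 scale (edgeR adjusted p = 0.00819). SYNM (-0.96, edgeR adjusted p = 0.0235) and SYNC (-0.91, edgeR adjusted p = 0.0156), which link muscle filaments to other structures, fell as well. Both calls were lost without control replicate 2 (-1.02 and -0.92), control replicate 3 (-0.93 and -0.86) or lactate replicate 3 (-1.05 and -0.86), and that of BFSP1 without lactate replicate 3 (-1.47). VIM, the main filament of stromal cells, was at 2797 ± 141 and 2676 ± 125 CPM (-0.06, edgeR adjusted p = 0.771).

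Genes for partners of keratin filaments (desmosome parts, linkers and cross-linked envelope proteins) changed in both directions. Of 35 on the list 27 were tested, 2 rose and 4 fell, with a median of 0.15, beside 5.29% and 4.14% of all genes tested. Involucrin (IVL), a precursor of the cornified envelope, went from 4.12 ± 0.809 to 0.996 ± 0.196 CPM (log2 fold change -2.05, edgeR adjusted p = 0.00564). Periplakin (PPL), which ties keratin filaments to the envelope and to desmosomes, went from 30.9 ± 6.42 to 11.8 ± 2.54 CPM (-1.39, edgeR adjusted p = 0.00947). Of the plakophilins, which are desmosomal plaque proteins, PKP3 fell (-1.11, edgeR adjusted p = 0.0295) and PKP1 rose from a low level (0.666 to 1.59 CPM, 1.23, edgeR adjusted p = 0.0467). The call of PPL was lost without lactate replicate 3 (-1.45), and that of PKP3 without control replicate 2 (-1.13), lactate replicate 2 (-1.08) or lactate replicate 3 (-0.998). The call of PKP1 was lost on leaving out any library but control replicate 1 (1.12 to 1.37).

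Markers of epithelial cells, the usual source of keratins in the prostate, were few and low. Of 31 genes on the list 19 were in the table and 13 were tested, of which 1 rose and 0 fell (median 0.06), beside 5.29% and 4.14% of all genes tested. SPINT1, a protease inhibitor of epithelia, went from 0.413 to 2.11 CPM (log2 fold change 2.21, edgeR adjusted p = 0.0287), a call lost on leaving out any library but control replicate 1 (1.89 to 2.32). With control replicates 2 and 3 at 0.238 and 0.197 CPM, it could be tested only through its lactate libraries. The summed level of the list was 32.3 to 33.6 CPM in control. In lactate it was 28.8 to 30.9 CPM, lower with no overlap. Of single genes tested, 32.6% did not overlap either. OCLN (8.34 to 6.10 CPM) and MUC1 (7.20 to 4.29 CPM), neither of them called, made up much of the sum, so it does not speak for the whole list. The part of these markers in the keratin results was not tested. EPCAM was at 0.177 and CDH1 at 0.183 CPM with lactate, both too low to test. KLK2, KLK3, TMPRSS2, GRHL2 and OVOL1 were not listed. Among list genes that were tested and not called, ACPP (2.84 to 1.37 CPM) and ELF3 (2.00 to 0.905 CPM) had lower means with lactate. CLDN7 (1.86 to 3.87 CPM) had a higher one. The stromal list summed to 7373 to 8259 CPM in control and 7913 to 8233 CPM in lactate, and of its 20 genes, all tested, 2 rose and 3 fell (median -0.03). The smooth muscle genes TAGLN (log2 fold change 1.57, edgeR adjusted p = 0.00548) and CNN1 (1.09, edgeR adjusted p = 0.0231) rose, while S100A4 (-1.63, edgeR adjusted p = 0.0122) and COL3A1 (-1.21, edgeR adjusted p = 0.00492) fell. In bulk RNA, fewer cells of a type and less RNA per cell cannot be told apart.

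Of 32 transcription factors known to act on keratin or hair keratin genes, 25 were tested, 1 rose and 2 fell (median 0.04), beside 5.29% and 4.14% of all genes tested. LEF1, a factor of hair follicle development, went from 3.65 ± 0.431 to 6.81 ± 1.47 CPM (log2 fold change 0.91, edgeR adjusted p = 0.0424). VDR, the vitamin D receptor, fell by 0.73 (edgeR adjusted p = 0.0437) and NFKB1 by 0.56 (edgeR adjusted p = 0.0407) on the log2 scale. The calls of VDR (-0.81 to -0.62) and NFKB1 (-0.63 to -0.51) were lost on leaving out any library but control replicate 1, and that of LEF1 (0.72 to 0.995) on leaving out any library but replicate 1 of either group. HOXC13, a regulator of hair keratin genes, was at 0.248 CPM in control and 0.208 CPM in lactate and was not tested.

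Over the 6 libraries, the genes with a mean of at least 10 CPM whose log2(CPM + 1) followed KRTAP2-3 most closely were CTGF, a secreted matrix-associated growth factor (Pearson r = 0.995), TTC31 (0.994) and MYC (0.993). CTGF had a log2 fold change of 1.46, TTC31 of 0.17 and MYC of 0.96. KRT7 was followed most closely by RAN (0.999), CALM2 (0.997) and CDKN2C (0.995), with log2 fold changes of -0.23, -0.25 and -0.43. Each r is a description over 6 libraries that fall into the same 2 groups and share their depth and base composition.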

How the data were processed

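Messenger RNA of WPMY-1 cells was sequenced in 3 control and 3 lactate libraries, which the labels describe as poly(A)-selected, directional and single-end. The study's library section describes a 3′ end kit, which was taken to belong to another data set. The deposited table holds unnormalized counts of reads for each gene. STAR, DESeq2 and the build hg38 are named in the submitters' processing notes. Versions and the strand setting are not given in the sources used here. Counts were fitted with edgeR 4.0.16 in R 4.3.3 (TMM factors, low counts removed with filterByExpr, and a two-sided quasi-likelihood F test on 13188 of 15924 genes, Benjamini-Hochberg threshold 0.05). DESeq2 1.42.0, other scalings and filters, a GC and length correction and omission of each library were alternatives. Annotation was GENCODE 29 and RefSeq, with 96.0% of symbols matched. Groups came from the treatment label.

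The members and lists were chosen with earlier results of these data known. Named were all members, up to 4 called genes per list with the largest change, and the 3 genes most like the highest and the lowest member. Further genes were named as cell type markers, neighbours or overlapping copies. Library pairs differed beyond counting noise (chi-square per degree of freedom at least 7.13). One gene of the epithelial list is not reported here and was left out of its counts. Scripts were tested on simulated data.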

Additional observations from a re-analysis of the deposited data

How the results depend on the processing

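KRTAP2-3 and KRT34 kept their call in all 13 alternatives and KRTAP4-12 in all 12 that tested it. KRTAP1-5 kept it in 9 of 12 and was removed by a filter of at least 1 CPM. The main analysis could test KRTAP4-12 and KRTAP1-5 only through their lactate libraries, so their calls are a description. All genes called numbered 1244 in the main analysis, 2161 with DESeq2, 2909 with the GC and length trend removed and 6295 in 4 libraries without replicate 1 of each group, and 172 to 3092 when 1 library was left out. Leaving out 1 library gave 2 to 5 members higher and 0 to 1 lower, and the 4 libraries gave 5 and 2. Members lower were 3 with the GC and length trend removed. Other keratin-named genes called were 0 of those left with a mean of at least 1 CPM, since KRTAP4-12 was then not tested. Calls on the lists in the main analysis, the 4 libraries and the omissions of 1 library were 4, 7 and 1 to 4 for intermediate filaments, 6, 14 and 1 to 10 for keratin partners, 1, 7 and 0 to 2 for epithelial markers, 5, 13 and 2 to 7 for stromal markers and 3, 11 and 0 to 6 for keratin regulators. With the GC and length trend removed there were 10 calls for partners, 4 for epithelial markers and 7 for regulators. Epithelial markers had 5 with DESeq2 and 2 with scaling by total library size, and regulators 1 with that scaling. The sign turned for KRT10 (-0.27 to 0.085 over the omissions of 1 library, turned without lactate replicate 3), KRT18 (-0.33 to 0.092, turned without control replicate 1) and KRT81 (-0.17 to 0.19, turned without control replicate 3 and without lactate replicate 1, and -0.26 with the GC and length trend removed and -0.055 in the 4 libraries). SYNM, SYNC and PKP3 lost their call in 3 of the 13 alternatives, and PKP1, SPINT1, LEF1, VDR and NFKB1 in 5 or 6, mostly on leaving out 1 library. Apart from the fewer genes tested or libraries used, the cause was not tested. No paired analysis was possible because replicates were numbered in sample order only, which pairs nothing. Depth limits KRTAP1-5, KRT19 and KRTAP4-12 most, which had at most 48 counts in any library.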
